A study of Mus musculus with 12 samples.

Results

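The 10 genes described here mark the contractile and vessel-covering cells of healing skin: Acta2, Tagln, Myh11, Cnn1, Myl9, Rgs5, Pdgfrb, Cspg4, Notch3 and Mcam. They were chosen by name, with earlier results of these data known, by a rule that used no level, and all 10 were found among the 55487 genes of each table. The study followed wounds on the backs of 6-week-old male C57BL/6JNarl mice, each carrying 2 full-thickness punch wounds, with no altered allele in any group. In the sham group the wounds received Pluronic F127 gel (P-F127) alone once daily, and in the CAP group the same gel with 10 µM capsaicin, the pungent compound of chili peppers that activates the ion channel TRPV1 on sensory nerve endings. That unit is the labels' own. In one passage on these libraries the study's text writes mM instead, and the labels were followed here. RNA of the wound with its surrounding skin was sequenced at day 3 and day 6, with 3 libraries in each of the 4 groups, so 12 in all. The wound, the gel and the film dressing were shared by all 4 groups. Whether each library of a group came from a separate mouse, or some from the 2 wounds of 1 mouse, was not stated. The p-values therefore measure the spread between these libraries.

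Smooth muscle cells wrap arteries and veins and contract through a specialised set of actin and myosin proteins. Pericytes sit on capillaries, and both are grouped as mural cells. Endothelial cells of growing vessels recruit them by releasing PDGF-B, which acts on the receptor PDGFR-beta, and touch them through Notch ligands, which act on the receptor NOTCH3. In granulation tissue, the new connective tissue that fills a wound, some fibroblasts become myofibroblasts, which gain smooth muscle actin and pull the wound edges together. A gene such as Acta2 is therefore expressed by smooth muscle, by part of the pericytes and by myofibroblasts alike. In RNA of whole tissue, fewer cells of a type and less RNA per cell cannot be told apart.

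All values are TPM, transcripts scaled to the length of each gene and to the total of each library, so levels of different genes can be set side by side. Acta2 was the most abundant of the 10 genes, and its levels over the 12 libraries ran from 32.9 to 301 TPM. Rgs5, Pdgfrb, Myl9, Tagln, Notch3 and Mcam followed at means between 33.4 and 45.2 TPM. Myh11 had a mean of 9.93 TPM and Cspg4 of 4.07 TPM. Cnn1 was the least abundant, with a mean of 2.17 TPM and a lowest value of 0.303 TPM. All 10 genes passed the filter on low values in each of the comparisons. Keratinocyte genes, which define the labelled tissue, were abundant in each library, with summed levels of 8 genes between 25380.0 and 93976 TPM. Skeletal muscle genes were present as well, at 2273 to 7037 TPM over 10 genes.

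Positions are given on the mouse genome build GRCm38 (mm10), as in the tables. Acta2, smooth muscle alpha actin, lies at chr19:34241090-34255590 on the minus strand, and Myl9, a regulatory light chain of smooth muscle myosin, at chr2:156775420-156781658 on the plus strand. Tagln, which encodes the actin-binding protein transgelin (SM22-alpha), lies at chr9:45929619-45936058 on the minus strand. An antisense gene, Gm48529, was listed there at 3.63 to 7.20 TPM. Of the 31-base stretches of Tagln transcripts, 62.2% also occur in other genes when matches on either strand are counted. Gm48529 shares more of them than any other gene. Pcsk7, a proprotein convertase gene that also overlaps Tagln on the opposite strand, was listed at 22.5 to 30.1 TPM, about the level of Tagln itself at day 3. How reads were divided among the 3 genes is not known, so the level of Tagln is less certain than that of the other 9 genes, of which at most 6.59% of such stretches are shared. Chromosome 9 also holds Cnn1 at chr9:22099216-22109630, Mcam at chr9:44134469-44142727 and Cspg4 at chr9:56865033-56899870, all on the plus strand. Myh11 lies at chr16:14194535-14291372 and Notch3 at chr17:32120820-32166852, both on the minus strand. Rgs5 lies at chr1:169655501-169695813 on the plus strand. All 10 are annotated as protein-coding.

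RefSeq promoter windows of build GRCm38.p6, which run from 250 bases before to 50 bases after the transcript start, were at hand for 7 of the 10 genes, not for Tagln, Myh11 and Pdgfrb. They were searched for the CArG box, the 10-base site of serum response factor (SRF), the transcription factor long known to drive contractile genes. A full box is CC, then 6 bases that are all A or T, then GG, a pattern that a box meets on both strands alike. Of all 32851 windows, 1.63% hold a full box and 9.98% hold a box in which at most 1 of the 6 core bases is C or G. Myl9 has a full box that begins 161 bases before the start and a box with 1 such base at 99. Acta2 has no full box and has a pair with 1 such base, at 84 and 34 bases before the start. No box of either kind was found in the windows of Cnn1, Rgs5, Cspg4, Notch3 and Mcam. The log2 levels of Rgs5, Cspg4 and Mcam, without a box, correlated with those of Acta2 and Myl9 over the 12 libraries. Pearson r lay between 0.87 and 0.95. For Cnn1, also without a box, r was 0.64 with Acta2 and 0.76 with Myl9, and for Notch3 it was 0.17 and 0.28. The part of the boxes in these levels was not tested. Below are the windows of Acta2 and Myl9, which hold the boxes, and that of Notch3 as 1 of the 5 without. Boxes are in capitals. The windows are chr19:34255324-34255623 on the minus strand, chr2:156775214-156775513 on the plus strand and chr17:32166841-32167140 on the minus strand.
Acta2: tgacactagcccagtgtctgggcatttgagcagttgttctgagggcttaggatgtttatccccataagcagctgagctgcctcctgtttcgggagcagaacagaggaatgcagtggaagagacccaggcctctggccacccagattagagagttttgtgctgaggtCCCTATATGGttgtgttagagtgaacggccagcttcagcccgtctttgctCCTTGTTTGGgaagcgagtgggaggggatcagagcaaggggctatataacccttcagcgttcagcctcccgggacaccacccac
Myl9: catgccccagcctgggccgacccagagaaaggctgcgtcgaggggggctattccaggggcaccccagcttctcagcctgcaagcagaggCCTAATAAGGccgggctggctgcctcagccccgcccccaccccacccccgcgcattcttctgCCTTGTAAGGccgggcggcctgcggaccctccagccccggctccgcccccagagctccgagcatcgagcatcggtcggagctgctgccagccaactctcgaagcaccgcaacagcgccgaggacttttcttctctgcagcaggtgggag
Notch3: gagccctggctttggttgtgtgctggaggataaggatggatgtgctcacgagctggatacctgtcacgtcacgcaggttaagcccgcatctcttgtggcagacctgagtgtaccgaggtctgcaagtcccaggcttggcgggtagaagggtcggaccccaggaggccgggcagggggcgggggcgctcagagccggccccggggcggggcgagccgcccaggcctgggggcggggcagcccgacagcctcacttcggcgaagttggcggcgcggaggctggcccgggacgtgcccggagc

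The first comparison asked how the genes changed between day 3 and day 6 in wounds that received gel alone. Contractile, pericyte and receptor genes rose together, by 2.1-fold to 5.13-fold in the 8 genes past the threshold, while Notch3 and Cspg4 did not pass it. The threshold was the study's own: a difference of at least 2-fold with an unadjusted p under 0.05, here from limma on log2(TPM + 0.1). Of all genes tested, 2.13% were higher at this threshold. 6 of the 10 genes also had a limma adjusted p under 0.05, which 1.14% of all genes reached with a higher level at day 6.

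Among the contractile genes, Acta2 stood at 107, 86.5 and 105 TPM in the sham libraries of day 3 and at 177, 231 and 301 TPM in those of day 6. Every day 6 library lay above every day 3 library, and the log2 difference was 1.22 (SE 0.19, limma adjusted p = 0.0306). Tagln went from 20.9, 22.4 and 26.1 TPM to 52.6, 59.4 and 84.5 TPM, a log2 difference of 1.47 (SE 0.18, limma adjusted p = 0.0157). Its groups did not overlap either. Myl9 had 25.3, 28.9 and 30.4 TPM at day 3 and 51.6, 54.8 and 81.1 TPM at day 6, with a log2 difference of 1.12 (SE 0.18, limma adjusted p = 0.0308). Again all 3 libraries of day 6 were the higher ones.

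Myh11 and Cnn1 are the members most restricted to mature smooth muscle, as the heavy chain of its myosin and as calponin, a protein that binds its actin filaments. Myh11 had 5.25, 7.31 and 7.44 TPM at day 3 and 15.7, 9.78 and 24.6 TPM at day 6. Its groups did not overlap but spread widely at day 6, and the log2 difference was 1.23 (SE 0.32, limma unadjusted p = 0.00632, adjusted p = 0.116). Cnn1 had 0.303, 0.495 and 2.15 TPM at day 3 and 2.09, 3.69 and 8.67 TPM at day 6. Here the highest library of day 3 exceeded the lowest of day 6, and the log2 difference of 2.36 had an SE of 0.73 (limma unadjusted p = 0.0141, adjusted p = 0.173). These 2 rises thus passed the unadjusted threshold only.

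Among the pericyte and receptor genes, Rgs5, a regulator of G protein signalling widely used as a pericyte marker, had the smallest p of the 10 genes. It stood at 30.7, 24.5 and 28.8 TPM at day 3 and at 78.4, 65.2 and 86.5 TPM at day 6, and the log2 difference was 1.45 (SE 0.13, limma adjusted p = 0.0115). Every day 6 value was more than 2 times every day 3 value. Mcam, the adhesion molecule CD146 of mural and endothelial cells, went from 24.4, 16.8 and 19.8 TPM to 55.8, 53.0 and 80.8 TPM (log2 difference 1.62, SE 0.20, limma adjusted p = 0.0152). Pdgfrb, a gene of chromosome 18 for the PDGF receptor of mural cells and fibroblasts, went from 35.4, 23.8 and 26.1 TPM to 59.7, 52.7 and 65.1 TPM (log2 difference 1.07, SE 0.16, limma adjusted p = 0.026). Both genes kept their day 6 libraries above those of day 3.

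Cspg4 and Notch3 differed from this pattern. Cspg4, the proteoglycan NG2 of pericytes, had 3.62, 4.44 and 3.36 TPM at day 3 and 5.26, 4.21 and 7.76 TPM at day 6. The groups overlapped, and its log2 difference of 0.54 (SE 0.24) had a limma adjusted p of 0.342. Notch3 had 29.8, 35.2 and 32.3 TPM at day 3 and 34.2, 35.4 and 31.9 TPM at day 6. Those 6 values interleaved, and the log2 difference was 0.06 (SE 0.09, limma adjusted p = 0.817). In 7 of the 10 genes, all but Cnn1, Cspg4 and Notch3, each sham library of day 6 exceeded each of day 3, as did 10.8% of all genes tested. The exact permutation test gave p = 0.1 for each of the 7, the smallest p that 3 against 3 libraries allow. Without sham day 6 replicate 3, the highest library in 9 of the 10 genes, 4 genes passed the threshold, against 1.86% of all genes higher at it.

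**Figure D1:**
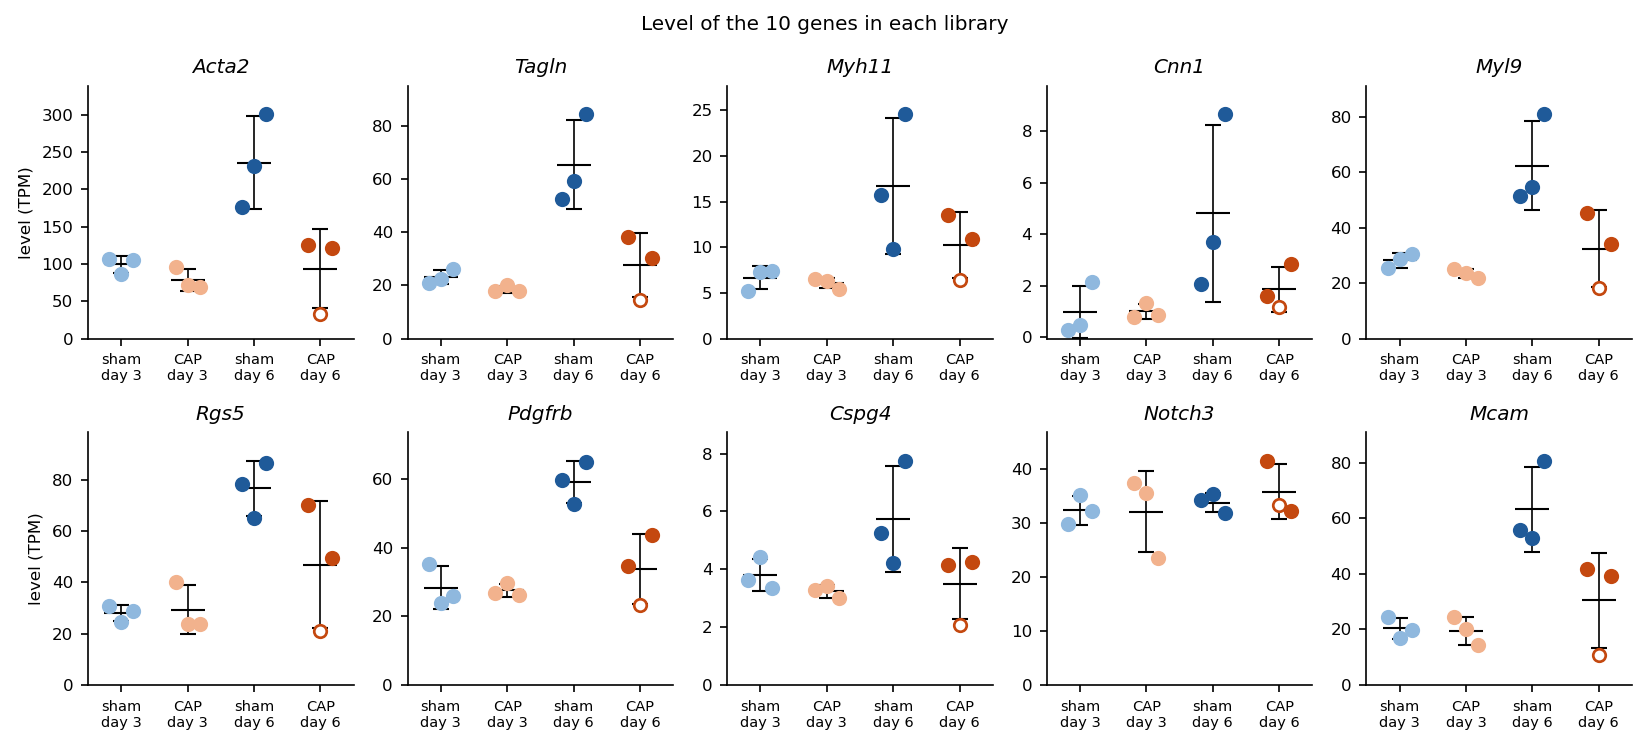
Level (TPM, linear axes) of each of the 10 genes in the 12 libraries. Points are libraries, the horizontal mark is the mean and the whiskers are 1 SD (n = 3), and the open point is CAP day 6 replicate 2. The dark blue points of sham day 6 all stand above the other groups in Acta2, Tagln, Myl9, Pdgfrb and Mcam. In Myh11, Cnn1, Rgs5 and Cspg4 they overlap with another group, and Notch3 lies between 23.5 and 41.6 TPM throughout. Acta2 has 177 to 301 TPM in sham day 6, against 68.8 to 107 TPM at day 3 and 32.9 to 126 TPM in CAP day 6.

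The second comparison asked the same of the CAP-treated wounds. None of the 10 genes passed the threshold, against 1.27% of all genes higher at it, and in none did the day 6 libraries all lie above those of day 3, against 8.05% of all genes. At an unadjusted p under 0.05 there was 1 gene, Myh11, with a log2 difference of 0.68 (SE 0.28, limma unadjusted p = 0.0466, adjusted p = 0.425), while 11.6% of all genes had such a p in either direction. All 10 differences were above 0, from 0.03 in Acta2 to 0.78 in Cnn1. These values depended in part on 1 library. CAP day 6 replicate 2 was the lowest of all 12 libraries for Acta2, Tagln, Myl9, Rgs5, Pdgfrb, Cspg4 and Mcam. Acta2 had 126 and 122 TPM in the other CAP libraries of day 6 and 32.9 TPM in this one. Mcam had 41.7 and 39.2 TPM in the others and 10.7 TPM here. Notch3, at 33.4 TPM, was between the other 2 libraries, which had 41.6 and 32.3 TPM.

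With CAP day 6 replicate 2 left out, a choice made after its levels had been seen, Mcam, Rgs5 and Cnn1 passed the threshold. Their log2 differences were 1.07 (SE 0.23), 1.05 (SE 0.29) and 1.05 (SE 0.38), and 1.28% of all genes were higher at the threshold in that fit. The limma adjusted p of these 3 genes lay between 0.426 and 0.525. Tagln then had a log2 difference of 0.88 (SE 0.14), Myl9 of 0.75 (SE 0.16) and Acta2 of 0.67 (SE 0.17). That library also differed in other cells' genes. The summed level of 11 endothelial genes was 132 TPM there against 359 and 330.5 TPM in the other 2, and that of 8 keratinocyte genes was 93976 TPM against 63448 and 45179 TPM. Much of the keratinocyte sum was Krt1 and Krt10, at 29718 and 40801 TPM in that library. Krt5 and Perp were highest there as well. Krt14, Trp63 and Dsp lay between the other 2 libraries, and Itga6 was lowest there. The part of these differences in the values of the 10 genes was not tested.

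The third comparison set CAP-treated against sham wounds at day 3. No gene passed the threshold, against 1.16% of all genes lower at it. The differences ran from -0.35 in Acta2 to 0.41 in Cnn1 on the log2 scale. Tagln had 17.7, 20.1 and 17.8 TPM in the CAP libraries, all below the sham libraries listed above, a log2 difference of -0.32 (SE 0.12, limma unadjusted p = 0.0304, adjusted p = 0.718). Myl9 had 25.1, 23.6 and 21.7 TPM in the CAP libraries, likewise all below the sham ones (log2 difference -0.26, SE 0.11, limma unadjusted p = 0.046, adjusted p = 0.744). So 2 of the 10 genes had groups that did not overlap, against 8.75% of all genes that were lower in this way. Acta2 had 95.8, 71.7 and 68.8 TPM with CAP, and its groups overlapped (log2 difference -0.35, SE 0.15, limma unadjusted p = 0.0606). Rgs5 had 40.2, 23.9 and 23.9 TPM and Pdgfrb 26.8, 29.7 and 26.2 TPM with CAP. Their log2 differences of 0.03 and -0.03 were within 1 SE of 0. Without sham day 3 replicate 3, whose Cnn1 level was the highest of that day, Cnn1 passed the threshold with a log2 difference of 1.14, higher with CAP, as did 0.491% of all genes.

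At day 6, CAP-treated wounds had lower levels than sham wounds in 9 of the 10 genes, and 4 of them passed the threshold: Acta2, Tagln, Myl9 and Mcam. Of all genes tested, 2.34% were lower at the threshold. No gene of the whole table had a limma adjusted p under 0.05 in this comparison, while 3517 of 18323 had an unadjusted p under 0.05. The median log2 difference of all genes was -0.12, and the differences below include this shift.

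Acta2 had 126, 32.9 and 122 TPM with CAP against 177, 231 and 301 TPM in sham wounds. The highest CAP library lay under the lowest sham library, and the log2 difference was -1.53 (SE 0.52, limma unadjusted p = 0.021, adjusted p = 0.225). Tagln had 38.2, 14.6 and 30.3 TPM with CAP (log2 difference -1.32, SE 0.36, limma unadjusted p = 0.00822, adjusted p = 0.209). Myl9 had 45.5, 18.1 and 34.0 TPM (log2 difference -1.01, SE 0.34, limma unadjusted p = 0.0221, adjusted p = 0.226). In both genes, too, each CAP library was below each sham library. Mcam had 41.7, 10.7 and 39.2 TPM with CAP and did not overlap with sham (log2 difference -1.25, SE 0.51, limma unadjusted p = 0.0435, adjusted p = 0.249). Pdgfrb had 34.6, 23.3 and 43.8 TPM with CAP, also all below sham. It had the smallest unadjusted p of the 10 genes, 0.00745 in limma, but at a log2 difference of -0.84 (SE 0.23, adjusted p = 0.209) it was under the 2-fold limit. These 5 genes were those whose groups did not overlap. The share of all genes lower in this way was 18.0%, and the exact permutation test gave p = 0.1 for each of the 5, the smallest it can give.

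The remaining 5 genes did not pass. Rgs5 had 70.1, 21.1 and 49.3 TPM with CAP, and 1 of these lay inside the sham range (log2 difference -0.86, SE 0.41). Cnn1 had 1.59, 1.17 and 2.86 TPM (log2 difference -1.17, SE 0.55), and Myh11 had 13.5, 6.37 and 10.9 TPM (log2 difference -0.66, SE 0.39). Cspg4 had 4.15, 2.08 and 4.26 TPM (log2 difference -0.72, SE 0.35). All 4 overlapped with sham, at limma adjusted p values between 0.288 and 0.371. Notch3 was the 1 gene above 0, with 41.6, 33.4 and 32.3 TPM and a log2 difference of 0.07 (SE 0.13, limma adjusted p = 0.774).

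Without CAP day 6 replicate 2, none of the 10 genes passed the threshold, against 0.933% of all genes lower at it. The direction was the same in each gene. The log2 difference was then -0.89 (SE 0.22) in Acta2, -0.91 (SE 0.22) in Tagln, -0.64 (SE 0.23) in Myl9, -0.62 (SE 0.19) in Mcam and -0.60 (SE 0.15) in Pdgfrb. These 5 genes had limma unadjusted p values between 0.00594 and 0.0321 and adjusted p values between 0.277 and 0.363. The sham libraries bore on the count as well, with 2 genes past the threshold without sham day 6 replicate 2, against 1.84% of all genes, and 1 without replicate 3, against 1.95%. After median-ratio scaling of the libraries, which moved the median of all genes from -0.12 to -0.01, Acta2 and Tagln passed, against 1.63% of all genes lower.

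**Figure D2:**
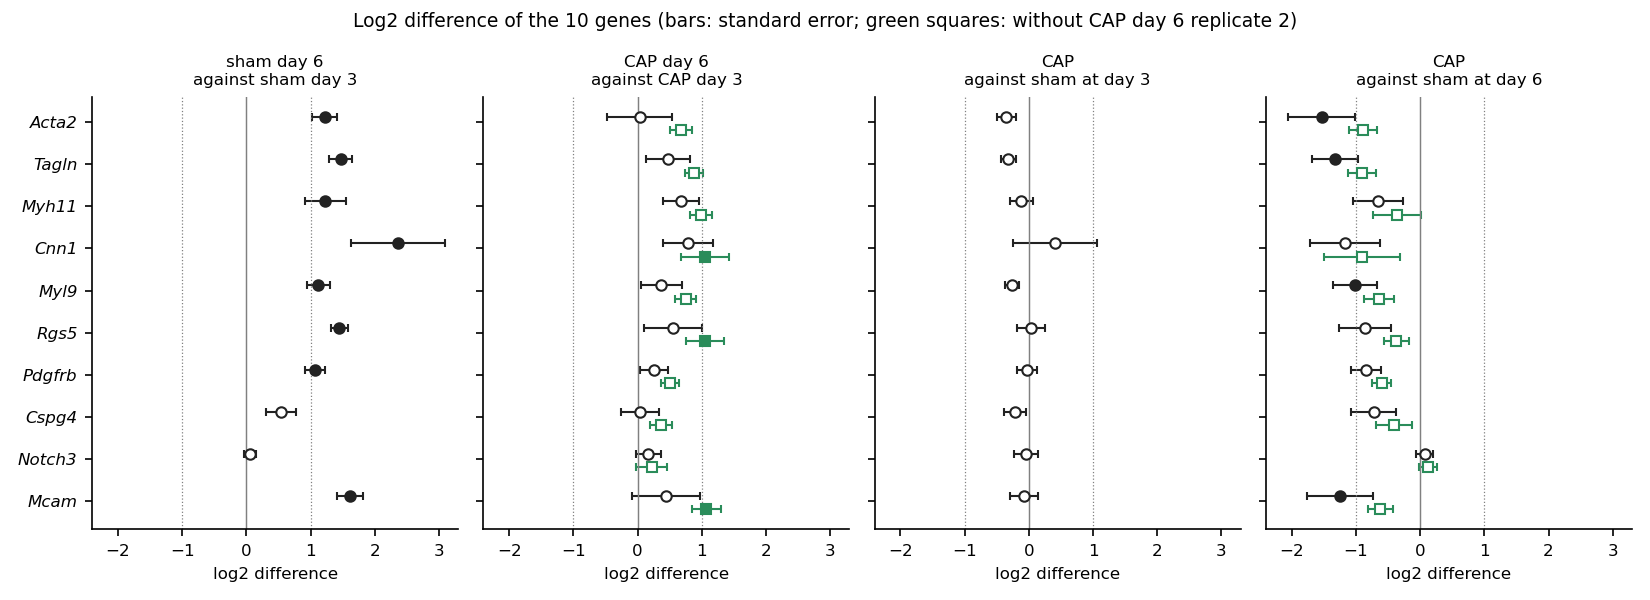
Log2 difference of each of the 10 genes in the 4 comparisons between groups. Symbols are limma estimates, whiskers are 1 standard error, filled symbols passed the threshold, dotted lines mark a 2-fold difference, and green squares omit CAP day 6 replicate 2. In sham wounds 8 genes stand filled at or beyond a 2-fold rise, whereas at day 6 the 4 filled circles of CAP against sham turn into open squares between -0.91 and -0.62 without that library.

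The last comparison tested whether the CAP effect itself differed between the days, with an interaction term. No gene passed the threshold, which 2.73% of all genes did in the lower direction. An unadjusted p under 0.05 was reached by 2 of the 10, against 11.3% of all genes in either direction. Pdgfrb had a difference of effects of -0.82 on the log2 scale (SE 0.30, limma unadjusted p = 0.0191, adjusted p = 0.428, exact permutation p = 0.07). Tagln had -1.0 (SE 0.42, limma unadjusted p = 0.0358, adjusted p = 0.428, exact permutation p = 0.19). Acta2, with -1.19, had an SE of 0.60, and Notch3 had 0.11 (SE 0.23). Because day 6 and day 3 effects share no library, this is a comparison of separate samples. Without CAP day 6 replicate 2 the values of Pdgfrb and Tagln were -0.57 (SE 0.23) and -0.59 (SE 0.26). The count depended on single libraries, with 5 genes past the threshold without CAP day 6 replicate 1, against 2.76% of all genes lower at it, and 4 without replicate 3, against 5.51%.

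By mean level, sham day 6 was the highest group in 9 of the 10 genes. It was clear of the second group, with no overlapping library, in Acta2, Tagln, Myl9, Pdgfrb and Mcam. In Myh11, Cnn1, Rgs5 and Cspg4 it overlapped with the second group, and in Notch3 neighbouring groups overlapped throughout. Across the 12 libraries the log2 levels of the 9 genes other than Notch3 ran together, with a median Pearson r of 0.88 over their 36 pairs (range 0.57 to 0.99). The pair with the highest r was Tagln and Myl9. The 9 pairs with Notch3 had r between 0.09 and 0.37. The libraries share their group structure and 1 low library. Without that library the medians were 0.88 and 0.25. With each group's mean subtracted as well, the median over the 36 pairs fell to 0.56, from 0.00 for Cnn1 and Rgs5 to 0.95 for Tagln and Myl9.

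Lists of related genes were set beside the 10. Over 13 further contractile genes tested, the median log2 difference in sham wounds from day 3 to day 6 was 0.26, against 0.00 over all genes. Of the 13, 2 rose past the threshold, against 2.13% of all genes. These were Actg2, the gamma actin of enteric smooth muscle (log2 difference 2.13, SE 0.37), and Mylk, the kinase that activates smooth muscle myosin (1.49, SE 0.19). Mylk had 5.05, 5.50 and 5.51 TPM at day 3 and 15.4, 11.7 and 19.7 TPM at day 6. None of the 13 fell past the threshold, although 6 were below 0, among them Des and Tpm2, which skeletal muscle expresses too (log2 difference -0.71 and -0.61). Of 10 skeletal muscle genes, 2 were lower at the threshold, Myh2 and Myh4, against 1.61% of all genes, and their median was -0.79. Of 4 genes tested for SRF and its coactivators, none passed. Srf itself had a log2 difference of 0.03 (SE 0.12).

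Of 13 further pericyte genes, 5 rose past the threshold over the same days, against 2.13% of all genes, at a list median of 0.86. Cox4i2, an isoform of a cytochrome oxidase subunit, went from 0.613, 0.310 and 0.256 TPM to 4.40, 3.62 and 3.11 TPM (log2 difference 3.00, SE 0.33). Rgs4 had 1.83 (SE 0.32), and the soluble guanylate cyclase subunits Gucy1b1 and Gucy1a1, which sense nitric oxide, had 1.43 (SE 0.21) and 1.28 (SE 0.29). Foxs1 was the other one, at 1.12 (SE 0.25). Kcnj8 and Abcc9, the subunits of the pericyte potassium channel, had log2 differences of -0.14 and 0.49 and did not pass.

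The ligands and partners of the receptors were read next. None of the 4 PDGF ligands or the alpha receptor Pdgfra passed between day 3 and day 6 in sham wounds. Pdgfb, which encodes a ligand of PDGFR-beta, had a log2 difference of 0.39 (SE 0.09, limma adjusted p = 0.0816). Of 10 Notch genes tested, 4 rose past the threshold, against 2.13% of all genes. All 4 are known from vessels: the ligand Dll4 (1.73, SE 0.25), the receptor Notch4 (1.62, SE 0.22) and the targets Hey1 (1.23, SE 0.19) and Heyl (1.21, SE 0.24). Jag1, the Notch ligand that mural cells meet on endothelium, had -0.42 (SE 0.11) and was under the 2-fold limit. None of 5 TGF-beta ligands and receptors passed, with a median of 0.29. Of 11 matrix genes of myofibroblasts, Col12a1 alone passed (1.45, SE 0.34), and Postn, which encodes periostin, had 0.77 (SE 0.11, limma adjusted p = 0.0235), again under 2-fold.

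At day 6, CAP against sham, 2 of 13 further contractile genes were lower at the threshold, Actg2 (-1.74, SE 0.59) and the actin regulator Cald1 (-1.04, SE 0.31), and all 13 were below 0 at a median of -0.49. Of 13 pericyte genes 1 was lower, Steap4 (-1.18, SE 0.47), at a median of -0.59, while Kcnj8 was higher in each CAP library, at 8.78, 12.6 and 9.40 TPM against 5.69, 5.68 and 8.48 TPM in sham, without reaching 2-fold. Notch4 and Heyl were lower among 11 Notch genes (-1.36, SE 0.54, and -1.44, SE 0.51). Of 11 matrix genes 3 were lower, Col12a1 (-1.69, SE 0.56), Tnc, the matrix protein tenascin-C (-1.61, SE 0.59), and Lrrc15, a myofibroblast surface protein (-1.24, SE 0.37). No gene of the SRF, PDGF or TGF-beta lists passed. The share of all genes lower at the threshold was 2.34%. The limma adjusted p of each gene named in this paragraph was above 0.2. Actg2 and Col12a1 still passed without CAP day 6 replicate 2, and no gene of the pericyte and Notch lists did.

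The other comparisons called few genes of the related lists. At day 3, CAP against sham, Cox4i2 was the single gene of the contractile, SRF, pericyte, PDGF, Notch, TGF-beta and matrix lists past the threshold, with 0.895, 0.933 and 0.863 TPM in the CAP libraries (log2 difference 1.08). All 11 matrix genes were below 0 there, at a median of -0.55, and none passed. In CAP wounds from day 3 to day 6, Rgs4 was the single gene of these lists that passed (log2 difference 1.07), and it had 2.05, 2.05 and 1.08 TPM at day 3 and 3.61, 2.61 and 4.95 TPM at day 6. In that comparison 4 of the 13 pericyte genes passed without CAP day 6 replicate 2: Gucy1a1, Rgs4, Foxs1 and Cox4i2. So did Actg2 of the contractile list, Dll4 and Notch4 of the Notch list and Col12a1 of the matrix list. No gene of the SRF, PDGF and TGF-beta lists did, and 1.28% of all genes were higher at the threshold in that fit.

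**Figure D3:**
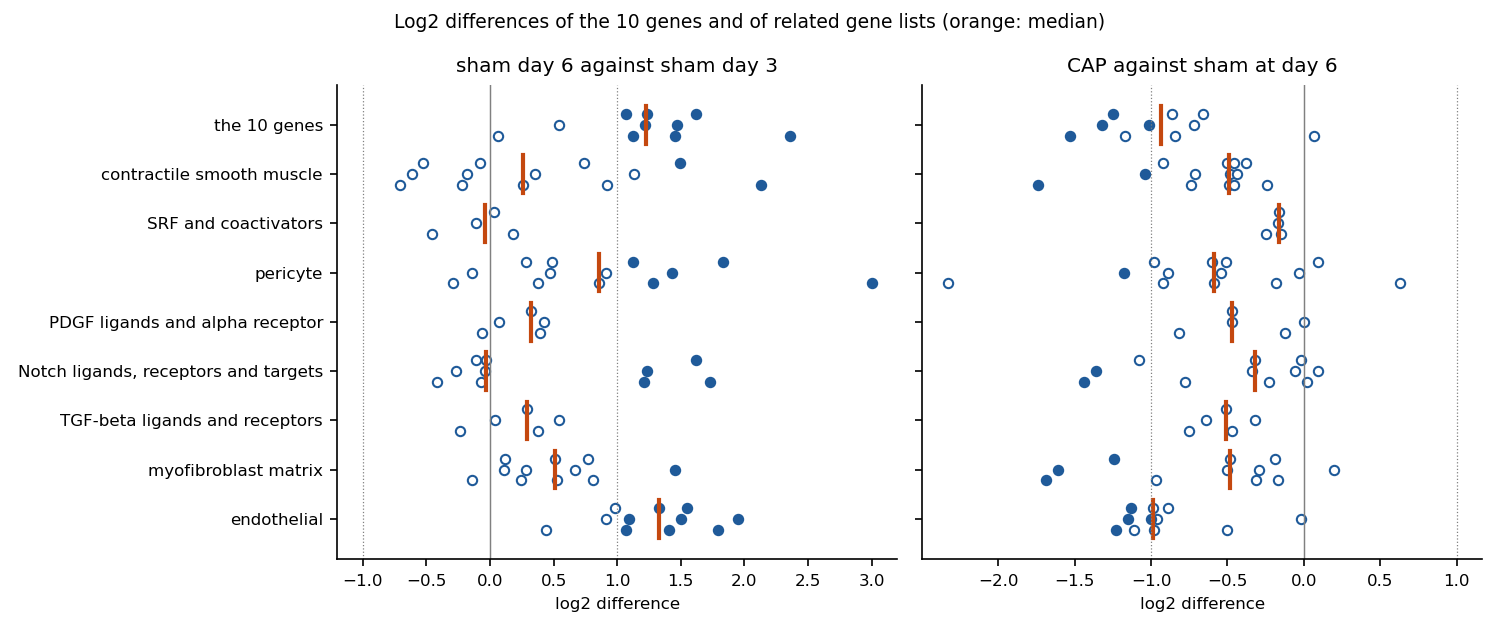
Log2 difference of each tested gene of the 10 and of 8 related lists, in sham wounds from day 3 to day 6 (left) and for CAP against sham at day 6 (right). Each point is a gene, filled where it passed the threshold, orange lines are list medians and dotted lines mark 2-fold. The 10 genes and the endothelial list have the highest medians on the left, 1.23 and 1.33, and the lowest on the right, -0.94 and -0.99.

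Endothelial genes moved with the 10 genes in both comparisons. From day 3 to day 6 in sham wounds, 8 of 11 endothelial genes rose past the threshold, against 2.13% of all genes. Their median log2 difference was 1.33. Pecam1, the adhesion molecule CD31, went from 48.7, 31.5 and 38.6 TPM to 103, 88.6 and 122 TPM. At day 6, 4 of the 11 were lower with CAP at the threshold, against 2.34% of all genes, and the list median was -0.99. These were Esam, Pecam1, Cdh5 and Emcn. Without CAP day 6 replicate 2 none of the 11 passed and the median was -0.52, against -0.61 for the 10 genes. Summed over the 11 genes, the level ran from 173 to 235 TPM in sham day 3, 167 to 239 in CAP day 3, 415 to 562 in sham day 6 and 132 to 359 in CAP day 6. None of the 11 genes was at 0 in any library. Leukocyte and skeletal muscle genes also lay lower with CAP at day 6. Of 9 leukocyte genes 8 were below 0, with Itgam past the threshold, and their median was -0.74. All 10 skeletal muscle genes were below 0, with Myh4 past it, at a median of -0.32. Most keratinocyte and adipocyte genes went the other way, with 7 of 8 and 4 of 6 above 0. Among 8 keratinocyte genes, Krt1 and Krt10 were higher with CAP at the threshold, against 1.46% of all genes, and the summed level ran from 27042 to 30211 TPM in sham and from 45179 to 93976 TPM in CAP. Much of that sum was Krt1 and Krt10, with means of 19616 and 25778 TPM in CAP against 5150.1 and 7748 TPM in sham. Lep was higher among 6 adipocyte genes, at a median of 0.83, and none of 7 Schwann cell and melanocyte genes passed. From day 3 to day 6 in sham wounds none of the keratinocyte, leukocyte, adipocyte or Schwann cell and melanocyte genes passed, at medians of -0.26, 0.16, -0.11 and 0.02. The part of these lists in the values of the 10 genes was not tested.

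The level of each gene was therefore also expressed against the mean log2 level of the 11 endothelial genes in the same library, a measure chosen after the values had been seen and given without a test. On this measure 1 of the 10 genes, Acta2, was lower with CAP without overlap at day 3, against 4.61% of all genes tested. At day 6 these were 3, Acta2, Tagln and Mcam, against 0.246% of all genes. The gaps were narrow. The lowest sham and highest CAP values were 2.46 and 2.43 in Acta2, 0.71 and 0.66 in Tagln, 0.80 and 0.79 in Mcam. Notch3 was higher without overlap at day 6, as were 48.0% of all genes. Both day 6 shares include that the endothelial genes themselves were lower with CAP. Rgs5 varied over 2.03 log2 units across the 12 libraries by itself and over 0.63 units relative to endothelial genes. Mcam varied over 2.90 units and 0.89 units, and Myl9 over 2.16 and 0.70 units. In CAP day 6 replicate 2 Rgs5 stood 1.15 units above the endothelial mean, against 1.53 and 1.12 units in the other 2 libraries of its group. Mcam stood 0.18 units above it there, against 0.79 in both others. The low library thus kept the ratio of Rgs5 to endothelial genes but not that of Mcam. Notch3 varied over 0.82 units by itself and over 2.07 relative to endothelial genes. It was 1.27 ± 0.26 units above them in sham day 3 and 0.06 ± 0.30 in sham day 6 (SD, n = 3).

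**Figure D4:**
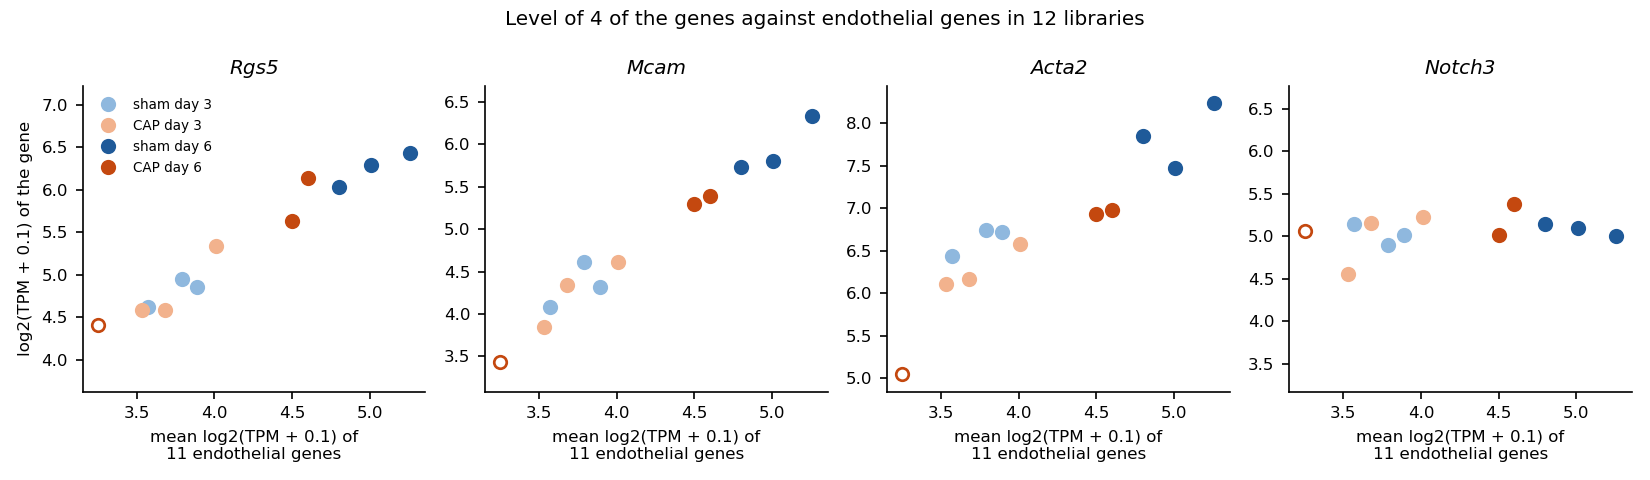
Log2(TPM + 0.1) of Rgs5, Mcam, Acta2 and Notch3 against the mean log2(TPM + 0.1) of 11 endothelial genes in the same library. Points are the 12 libraries, coloured by group, with CAP day 6 replicate 2 open, and each vertical axis spans the same number of log2 units. Rgs5 and Mcam follow the endothelial mean from the lowest library to the highest, whereas Notch3 stays level.

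The genes whose log2 levels were most like 4 of the members were taken from the 16169 genes whose mean reached 1 TPM, by Pearson r over the 12 libraries. For Rgs5 they were Adgrf5 (r = 0.990), Esam, Plvap, Pecam1 and Tie1. For Acta2 they were Kdr, the VEGF receptor of endothelial cells (r = 0.980), Angpt2, Adamts9, Dusp2 and 2610021A01Rik. For Myh11 they were Mylk (r = 0.958), Gucy1a1, Adcyap1r1, Depp1 and Nr2f2. For Pdgfrb they were Igfbp7 (r = 0.960), Gja4, Lbp, Sema6d and Oat. None of these 20 genes was 1 of the 10, and Esam, Pecam1, Tie1 and Kdr belong to the endothelial list. Without CAP day 6 replicate 2, r of the 4 leading genes lay between 0.956 and 0.989. All of these r include the differences between the 4 groups, so they do not show likeness within a group.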

How the data were processed

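RNA-seq of mouse wounds was read from 12 deposited tables of TPM, 3 per group. Per the labels and the study's methods, the authors converted reads with bcl2fastq, trimmed them with Trimmomatic 0.36, aligned them to mm10 and estimated TPM per gene with StringTie, so each library has the same total and the tables keep no read depth. Depth and counting error are therefore unknown, and no counting interval or limit of detection is given. Genes at 0 carry a placeholder of 0.0001 TPM. Between 18533 and 19325 genes reached 0.3 TPM per library, the 10 most abundant genes took 8.27% to 14.1%, and no tables were identical.

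TPM were tested on log2(TPM + 0.1) with limma 3.58.1 (R 4.3.3, intensity trend) over all genes whose mean reached 0.3 TPM in each group compared (for the interaction, in at least 1 of the 4), fitting the compared groups. Fold changes of low genes are understated by the added 0.1. P-values were adjusted by Benjamini-Hochberg over all genes tested. The fit was tested on simulated data. Exact permutation tests were two-sided, within each day for the interaction. The 10 genes, 13 related lists (116 genes, all found) and the comparisons were chosen with earlier results of these data known. Genes named from a list were the up to 4 with the smallest p past the threshold, and others were named after their values were seen. Alternatives were a pseudocount of 1 TPM, no filter, a joint fit of 12 libraries, a replicate block, median-ratio scaling, quantile normalization and leaving out each library.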

Additional observations from a re-analysis of the deposited data

Results flagged for a closer look

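The CAP effect at day 6 differed from that at day 3 by the interaction test in 2 of the 10 genes, at an unadjusted p under 0.05, which 11.3% of all genes had in either direction. Pdgfrb had a difference of effects of -0.82 on the log2 scale and Tagln of -1.0, both with a limma adjusted p of 0.428, so neither holds after adjustment over all genes. The exact permutation p was 0.07 and 0.19, and without CAP day 6 replicate 2 the values were -0.57 and -0.59. At day 3 the CAP effect was -0.03 in Pdgfrb and -0.32 in Tagln, and at day 6 it was -0.84 and -1.32. All 3 CAP libraries lay below all 3 sham libraries in both genes at day 6, as in 18.0% of all genes. In Tagln this was so at day 3 too, as in 8.75% of all genes, while the day 3 groups of Pdgfrb overlapped.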

How the results depend on the processing

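Of 650 values of single genes recomputed under the alternatives, 584 kept their direction and their side of the threshold, 19 no longer passed, 23 newly passed and 24 changed sign. In sham wounds from day 3 to day 6, 8 genes passed under each alternative that kept all libraries, and 4 to 8 with a library left out. The counts for CAP wounds were 0 and 0 to 3, and for CAP against sham at day 3 they were 0 and 0 to 1. At day 6 the count for CAP against sham was 4, with 2 after median-ratio scaling, 3 after quantile normalization or with 1 TPM added, and 0 to 6 with a library left out. For the difference between the CAP effects it was 0, and 0 to 5 with a library left out. With 1 TPM added, the counts over all genes fell to 405 from 688 in sham wounds, 299 from 507 in CAP wounds, 154 from 290 at day 3, 385 from 697 at day 6 and 580 from 994 for the difference of effects. With a library left out they ran from 659 to 913, 389 to 932, 214 to 544, 311 to 1567 and 645 to 1765. The split of all genes higher and lower at day 6, 268 and 429, became 393 and 298 after median-ratio scaling and 409 and 253 after quantile normalization. At day 3 it went from 78 and 212 to 93 and 178, and to 105 and 158. The cause was not tested.

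At day 3 the difference of Pdgfrb turned to 0.04 after median-ratio scaling and 0.03 after quantile normalization, and that of Notch3 to 0.02 after both. With a library left out, 10 differences near 0 spanned it. For CAP wounds they ran from -0.29 to 0.67 in Acta2, -0.13 to 0.37 in Cspg4 and -0.04 to 0.30 in Notch3. At day 3 they ran from -0.10 to 1.14 in Cnn1, -0.22 to 0.15 in Rgs5, -0.14 to 0.14 in Pdgfrb, -0.16 to 0.17 in Notch3 and -0.25 to 0.14 in Mcam. At day 6 Notch3 ran from -0.04 to 0.14, and its difference of effects from -0.10 to 0.24.

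Deviations of same-numbered libraries correlated from -0.107 to 0.2, and those of differently numbered ones from -0.188 to 0.17. Not every library correlated best with its own number. As deviations from means of only 3 libraries, these values cannot decide whether a number stands for a shared batch. With the replicate number as a block, 8, 0, 0, 5 and 1 genes passed in the 5 comparisons, the added gene being Cnn1 in both cases, and 709, 548, 298, 725 and 1084 of all genes.

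The adjusted calls are less stable. In sham wounds 420 genes of all had a limma adjusted p under 0.05, with 1 to 511 when a library was left out and 0 in the joint fit of 12 libraries. For CAP against sham at day 6 it was 0, and 1499 without CAP day 6 replicate 3.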

Other observations

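Relative to endothelial genes, Acta2 lay lower with CAP than in sham wounds at both days, Tagln and Mcam at day 6, and Rgs5 overlapped at both. The log2 level of Acta2 above the mean of 11 endothelial genes was 2.94, 2.87 and 2.83 in sham day 3 and 2.57, 2.49 and 2.58 in CAP day 3. The groups did not overlap. At day 6 it was 2.46, 3.05 and 2.97 in sham and 2.37, 1.79 and 2.43 in CAP, without overlap by a gap of only 2.46 against 2.43. Tagln had 0.71, 1.09 and 1.14 in sham and 0.66, 0.62 and 0.42 in CAP at day 6, and Mcam had 0.80, 0.93 and 1.08 against 0.79, 0.18 and 0.79. Their gaps were narrow too, 0.71 against 0.66 in Tagln and 0.80 against 0.79 in Mcam. Notch3 was the 1 gene of the 10 higher without overlap at day 6, with 0.09, 0.34 and -0.26 in sham and 0.78, 1.81 and 0.52 in CAP. Of all genes tested, 4.61% were lower in this way at day 3 and 0.246% at day 6, and 48.0% were higher at day 6. The day 6 shares include that the endothelial genes themselves were lower with CAP. Rgs5 stood 1.06 ± 0.09 units above the endothelial mean in sham day 3, 1.10 ± 0.21 in CAP day 3, 1.23 ± 0.06 in sham day 6 and 1.27 ± 0.23 in CAP day 6 (SD, n = 3). This measure was chosen after the values had been seen, so no test is given, and CAP and sham libraries share no sample.

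In CAP day 6 replicate 2, where 7 of the 10 genes had their lowest value, the pericyte gene Kcnj8 had its highest, 12.6 TPM, and Postn stood at 1034 TPM between the 985 and 1280.1 TPM of the other 2 libraries. Cox4i2 was listed at 0 in this library, against 1.27 and 3.00 TPM in the others.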
